A study of Caenorhabditis elegans with 16 samples.

Results

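Arrested first-stage (L1) larvae of the Caenorhabditis elegans strain cdk12-as were compared with those of the N2 wild type (WT) at the start of the experiment, before any DMSO, food or inhibitor was added. The start libraries were chosen by their labels and are 4 of 16 in all, 2 from cdk12-as and 2 from WT. Both strains hatched from bleached embryos at 10 per µl in S-medium without food at 20 °C and stayed there for at least 12 h. The other 12 libraries were taken after 4 h more. Larvae then had 0.1% DMSO and no food (starved), 0.1% DMSO and OP50 bacteria (fed), or OP50 and the inhibitor 3MB-PP1 at 1 µM. Larvae of a 40 ml culture were pelleted, and whole-larva RNA was depleted of ribosomal RNA and made into stranded libraries. The labels call the libraries replicates without naming separate cultures, so each p-value rests on a spread that may be technical only. They also do not say how the allele was made or whether the strain was outcrossed, so the allele and the rest of the strain's genome cannot be told apart.

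CDK-12 is a cyclin K-dependent kinase that phosphorylates the carboxy-terminal domain of RNA polymerase II during elongation. In C. elegans it has been linked to the second and later genes of operons, whose mRNAs receive the SL2 leader by trans-splicing. An analog-sensitive form carries an enlarged ATP pocket, so a bulky compound can block it, and the form may differ in activity even without that compound. Newly hatched larvae without food stop in L1 with divisions halted and live on stored nutrients, under insulin-like signalling, until food arrives. The start comparison therefore asks how the strain differs from WT before the inhibitor is used.

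Gene counts in the start libraries ran from 25872927 to 42118911, and from 18588196 to 56644943 over all 16. The single ribosomal gene rrn-2.1 took 42.38% and 29.01% of gene counts in cdk12-as replicates 1 and 2, against 39.03% and 20.3% in WT. Reads without a feature were 39.89% and 41.3% in cdk12-as, against 31.26% and 28.24% in WT. Ambiguous reads were 5.656% and 6.734% in cdk12-as, against 3.731% and 0.9189% in WT. Both special classes moved with the strain at start. After 4 h of starvation they no longer separated the strains (reads without a feature 29.45% and 57.06% in cdk12-as, against 49.91% and 56.03% in WT), and their part in the start differences was not tested. Replicates differed far beyond sampling noise, with a chi-square per degree of freedom of 134.3 in cdk12-as and 209.2 in WT. In all 4 libraries the 3 tested yolk genes of adults summed to under 1 CPM (counts scaled by the TMM-adjusted library size): 0.855 and 0.993 CPM in cdk12-as, 0.598 and 0.86 CPM in WT. None of 8 tested body-wall muscle and none of 7 tested epidermal markers passed the test. Markers chosen for these lists but absent from the counted genes could not be tested.

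At start, 2029 of 15845 tested genes were higher in cdk12-as (12.8%) and 1836 were lower (11.6%), at an adjusted p under 0.05 by edgeR's quasi-likelihood test. These shares are the background for the counts of each list below. The changes were mostly modest. Of the higher genes, 824 differed more than 2-fold (5.2% of those tested), and of the lower ones 568 did (3.58%). The median log2 fold change was 0.84 among the higher genes and -0.73 among the lower ones, and the middle 90% of all tested genes lay between -1.05 and 1.29. At an unadjusted p under 0.05 there were 5829 genes. Both cdk12-as libraries lay above both WT libraries in 5045 genes (31.8%) and below both in 5227 (33.0%).

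The number called depended on single libraries. It fell to 948 higher and 882 lower without WT replicate 2, to 1160 and 815 without cdk12-as replicate 1, and to 1284 and 1037 without WT replicate 1. With the replicate number as a block it was 2809 and 2578, and the block kept 2028 of the 2029 higher and all 1836 lower genes. Scaling by total gene counts, in which rrn-2.1 weighs heavily, left 579 and 641 and moved the median of all genes by -0.12. With rrn-2.1 left out of those totals, 1961 genes were higher and 1739 lower. No gene was called in the opposite direction under any of these settings.

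**Figure D1:**
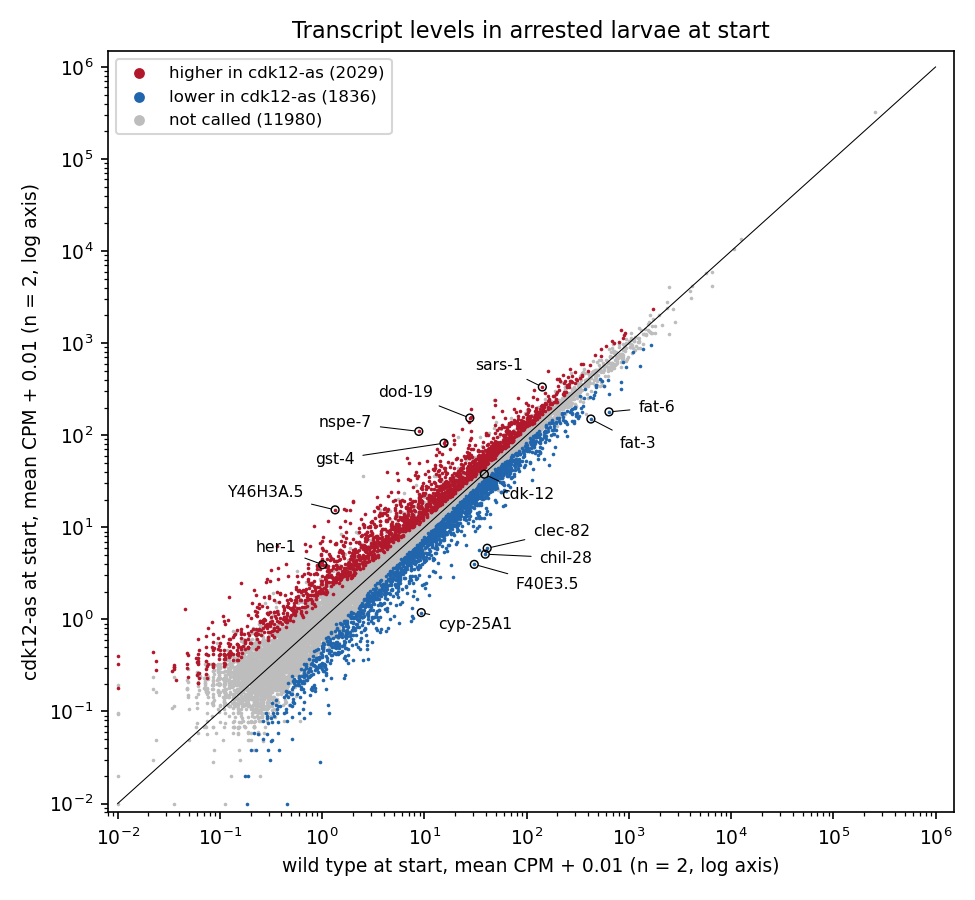
Mean CPM of each tested gene in cdk12-as (vertical) against WT (horizontal) at start, both on log axes after adding 0.01, with 2 libraries per mean. Red marks the 2029 genes higher and blue the 1836 genes lower in cdk12-as. The circled cdk-12 lies on the line of equal level.

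The kinase gene itself did not separate the strains. cdk-12 (chromosome III, 4333369 to 4340205 on ce10, plus strand) had 35.6 and 39.9 CPM in cdk12-as replicates 1 and 2, against 36.9 and 40.3 CPM in WT. These ranges overlapped, with a log2 fold change of -0.03 ± 0.15 (SE) and an adjusted p of 0.91. An altered codon leaves the gene's count as it is, so this level does not check the strain label. No gene had at most 3 counts in all 8 libraries of one strain and at least 20 in all 8 of the other, so that rule found no strain-specific transcript either. The cyclin partner gene ccnk-1 had 13 and 12.2 CPM in cdk12-as, against 15.4 and 14.2 CPM in WT. Its adjusted p was 0.115, and those of cdk-9, the kinase of P-TEFb, and ama-1, the largest polymerase II subunit, were 0.318 and 0.636. Of the 5 tested genes on each side of cdk-12, 8 were not called. gly-6 was lower (45.4 and 52.9 CPM in cdk12-as, against 64.9 and 72.4 CPM in WT, adjusted p = 0.0139) and mnp-1 higher (77.7 and 63.2 against 53.8 and 54.4 CPM, adjusted p = 0.0463). Both calls were lost without cdk12-as replicate 1 or without WT replicate 2, and that of mnp-1 also without WT replicate 1.

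Of 36 genes of polymerase II transcription, those 4 included, 4 were higher and 7 lower in cdk12-as. Among all tested genes 12.8% were higher and 11.6% lower. The subunit gene rpb-11 had 8.52 and 9.29 CPM in cdk12-as, against 17.3 and 18.5 CPM in WT. That is a log2 fold change of -1.01 ± 0.12 with an adjusted p of 0.000121. cyh-1, the cyclin H of the initiation kinase, had 17.5 and 18.4 CPM in cdk12-as, against 33.1 and 31.6 CPM in WT, a log2 fold change of -0.85. The subunit gene rpb-5 (-0.66) and the CTD phosphatase gene fcp-1 (-0.46) were also lower. On the higher side, the elongation factor gene emb-5 had 223 and 202 CPM in cdk12-as, against 151 and 143 CPM in WT (0.53). Leaving out a library left 1 or 2 higher genes and 4 or 5 lower ones, and the replicate block gave 5 and 11. With total counts 0 were higher and 2 lower, and emb-5, rpb-5 and fcp-1 lost their calls. In trans-splicing and mRNA 3′ end formation, 1 of 19 genes was higher and 3 were lower. Of these, sna-1, a trans-splicing factor gene (-0.43), was the only one to keep its call with any library left out, and it lost it with total counts (adjusted p = 0.181).

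Counting genes that averaged 5 CPM or more, the largest rises were in small secreted-type families and genes without an assigned role. nspe-7, of the nematode-specific peptide family E, had 130 and 90.3 CPM in cdk12-as, against 11.5 and 6.1 CPM in WT (chromosome II, 12627141 to 12627411). Its log2 fold change was 3.64 ± 0.44 with an adjusted p of 0.000133. Y46H3A.5 had 16.8 and 14.1 CPM in cdk12-as, against 1.34 and 1.32 CPM in WT (chromosome V, 1811422 to 1814115), a log2 fold change of 3.53 ± 0.3. F32A7.8 had 11.9 and 9.0 CPM in cdk12-as, against 0.981 and 0.672 CPM in WT (chromosome I, 14838906 to 14839127), a log2 fold change of 3.64 ± 0.38. In all of these genes the strains stood far apart, by the choice of genes without overlap. spp-20, a saposin-like protein gene, had 22.9 and 15.3 CPM in cdk12-as, against 2.54 and 1.45 CPM in WT. C08E8.3 had 45 and 34.9 CPM in cdk12-as, against 5.41 and 3.12 CPM in WT. F55G11.4 was higher by 3.17 ± 0.19 on the log2 scale. The 15 largest rises lay between 2.78 and 3.64 on the log2 scale, and also held nspe-1, nspe-6, Y60C6A.1, Y60C6A.2, F48C1.9, H02F09.3, C18D11.6, Y47H9C.1 and Y39H10A.1.

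Counting genes that averaged 5 CPM or more, the largest falls included a cytochrome P450, a chitinase-like gene and a C-type lectin. cyp-25A1 had 1.08 and 1.27 CPM in cdk12-as, against 9.0 and 9.62 CPM in WT (chromosome III, 3832630 to 3834503). Its log2 fold change was -2.97 ± 0.23 with an adjusted p of 8.2e-06. F40E3.5 had 3.35 and 4.55 CPM in cdk12-as, against 30.4 and 31.1 CPM in WT (chromosome I, 2645311 to 2648040), a log2 fold change of -2.95 ± 0.17. chil-28, of the chitinase-like family, had 3.68 and 6.51 CPM in cdk12-as, against 39.6 and 39.2 CPM in WT, a log2 fold change of -2.93 ± 0.37. clec-82, a C-type lectin gene, had 5.09 and 6.73 CPM in cdk12-as, against 38.8 and 43.4 CPM in WT (chromosome IV, 2835678 to 2838513), a log2 fold change of -2.79 ± 0.22. The WT pairs of these genes were close to each other. The rest of the 15 largest falls, from -2.71 to -2.0, were F54F12.1, C23G10.11, the pseudogene F07C4.12, ZK484.6, R10E8.6, K05F6.10, F17B5.1, cyp-25A2, T19C9.8, C08F11.3 and F47H4.2. The nspe genes and the cyp-25A genes are families of similar copies, and reads shared between copies make their single values uncertain.

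**Figure D2:**
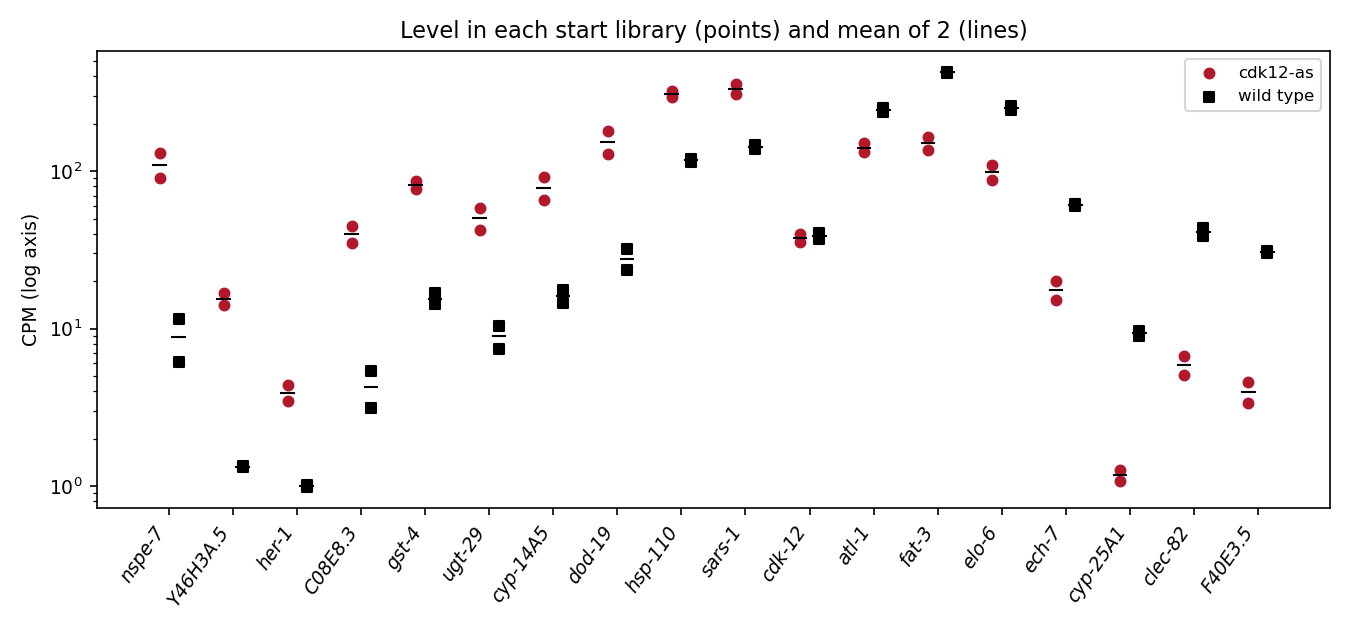
CPM of 18 genes named in the text in each start library (log axis), cdk12-as as red circles left of WT as black squares, with lines at the means of 2. Apart from cdk-12, the points of the strains do not overlap in any gene shown.

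Genes of conjugating detoxification enzymes were far more often higher than lower, where 12.8% of all tested genes were higher and 11.6% lower. UDP-glucuronosyltransferases couple sugars to lipophilic compounds, and 25 of 63 tested genes were higher and 2 lower, with a median log2 fold change of 0.35 against 0.001 over all tested genes. ugt-29 had 58.3 and 42.2 CPM in cdk12-as, against 10.4 and 7.44 CPM in WT. That is a log2 fold change of 2.49 ± 0.17 with an adjusted p of 4.7e-06. ugt-26 (2.28) and ugt-31 (1.71) were also called. Of 46 glutathione S-transferases 16 were higher and 5 lower, with a median of 0.37. gst-4, a widely used reporter of the oxidative stress response, had 86.7 and 77.2 CPM in cdk12-as, against 16.7 and 14.3 CPM in WT, a log2 fold change of 2.4 ± 0.17. gst-20 (1.2) and gst-5 (1.15) were also higher. Of 67 cytochrome P450 oxidase genes 9 were higher and 20 lower. cyp-14A5 had 91.2 and 65.6 CPM in cdk12-as, against 17.5 and 14.5 CPM in WT, while cyp-25A1 and cyp-25A2 fell. The higher counts were 16 to 19 for the UDP-glucuronosyltransferases and 13 or 14 for the glutathione S-transferases with a library left out, and 14 and 9 with total-count scaling. The lower P450 count was 6 without WT replicate 2, 7 without cdk12-as replicate 1, 8 without WT replicate 1 and 13 without cdk12-as replicate 2, against 7 higher genes in each case. With total counts 5 were higher and 8 lower, and after starvation 15 were higher and 5 lower.

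Many genes of defence against microbes were higher, while most of their signalling genes did not pass the test. The larvae had been given no bacteria at this time, per the labels' protocols. Of 53 antimicrobial peptide genes 19 were higher and 4 lower, with a median of 0.41. nlp-34, an epidermal peptide gene, had 56.8 and 56.6 CPM in cdk12-as, against 24.8 and 24.7 CPM in WT. fip-1 (3.98) and fipr-24 (3.0) had larger log2 fold changes, but fip-1 was low, at 2.68 and 2.24 CPM in cdk12-as, against 0.191 and 0.107 CPM in WT. C-type lectins and lysozymes were closer to balance, with 26 higher and 16 lower of 139 and a median of 0.09. Over all tested genes 12.8% were higher and 11.6% lower. The lectin gene clec-82 was among the lower ones (-2.79). The lysozyme gene lys-3 had 43.4 and 31.2 CPM in cdk12-as, against 9.31 and 6.93 CPM in WT, and lys-1 had 154 and 152 CPM in cdk12-as, against 60.4 and 63.5 CPM in WT.

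A list of 14 infection-response genes and relatives, chosen after its values were seen, held 11 higher and 0 lower genes. dod-19 had 180 and 128 CPM in cdk12-as, against 32.2 and 23.4 CPM in WT. Its log2 fold change was 2.47 ± 0.23. irg-5 (listed as F35E12.5) had 71.6 and 51.9 CPM in cdk12-as, against 14.6 and 11.4 CPM in WT. irg-8 (listed as ZK6.11) had 58.2 and 37.2 CPM in cdk12-as, against 13.4 and 11.8 CPM in WT. Both are genes that larvae and adults raise on exposure to bacterial pathogens. The other higher members were dod-24 (2.58), dod-22 (2.09), dct-17 (1.9), irg-4 (1.73), irg-2 (1.15), irg-1 (0.97), dod-17 (0.96, a call lost without cdk12-as replicate 2 or WT replicate 1) and irg-7 (0.66). irg-3, irg-6 and dod-20 were not called. Of 8 tested genes of the p38 kinase pathway and its regulators, also chosen after values were seen, 1 was called: tir-1, the TIR-domain adaptor at its head, had 157 and 150 CPM in cdk12-as, against 95.4 and 105 CPM in WT (log2 fold change 0.62, adjusted p = 0.000655). skn-1, the transcription factor of the oxidative stress response, had 131 and 144 CPM in cdk12-as, against 102 and 109 CPM in WT, with an adjusted p of 0.058. The pals genes, several of which answer infection by intracellular pathogens, were not higher: 0 of 29 were called higher and 5 lower, among them pals-33 (-1.47) and pals-26 (-1.43). With a library left out, 13 to 16 antimicrobial, 13 to 19 lectin and lysozyme and 9 to 11 infection-response genes were higher. With total counts these were 13, 9 and 8, and tir-1 and irg-1 lost their calls. The infection-response list was chosen with its values seen, so its counts and their steadiness are no separate support.

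The genes of fatty acid metabolism split in both directions, where 12.8% of all tested genes were higher and 11.6% lower. In the list of fatty acid oxidation, synthesis and desaturation as a whole, 18 of 68 genes were higher and 24 lower, with a median of 0.01. Among its lower genes ech-7, of the enoyl-CoA hydratase family, had 15.2 and 20 CPM in cdk12-as, against 61.7 and 59.9 CPM in WT (-1.79). The sharper subset of 16 genes held desaturases, elongases, their regulators and let-767. It was chosen after its values were seen and leaves out 4 of the elongase genes, which were not called lower. Of the 16, 12 were lower and 0 higher, with a median of -1.04. The choice favoured such values, so these counts and their steadiness under other settings are no separate support for the subset. Their summed level was 1566 and 1957 CPM in cdk12-as, against 3763 and 3987 CPM in WT. fat-6, a stearoyl-CoA desaturase, had 157 and 202 CPM in cdk12-as, against 616 and 662 CPM in WT. Its log2 fold change was -1.83 ± 0.18 with an adjusted p of 3.86e-05. fat-3 and fat-2, which add further double bonds on the way to polyunsaturated fatty acids, followed the same direction. fat-3 had 136 and 164 CPM in cdk12-as, against 421 and 429 CPM in WT (-1.5 ± 0.1, adjusted p = 4.37e-06). fat-2 had 267 and 372 CPM in cdk12-as, against 810 and 873 CPM in WT (-1.4). The elongase gene elo-6, which with elo-5 makes monomethyl branched-chain fatty acids, had 88.3 and 109 CPM in cdk12-as, against 258 and 243 CPM in WT (-1.34).

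The other lower members were elo-5 (-1.19), let-767 (-1.1), elo-1 (-1.09), fat-5 (-1.07), fat-4 (-1.01), fat-1 (-0.97) and elo-2 (-0.76), with nhr-80, a nuclear receptor that drives desaturase genes. nhr-80 had 8.74 and 8.9 CPM in cdk12-as, against 15.6 and 17.1 CPM in WT (-0.89). fat-7, a second stearoyl-CoA desaturase, was under 1 CPM in each library and was not called. The other regulators did not pass the test, with log2 fold changes of -0.07 for nhr-49, 0.12 for sbp-1 and -0.31 for mdt-15. fasn-1, the fatty acid synthase that makes the saturated precursor, stood on the other side. It had 1520 and 1240 CPM in cdk12-as, against 911 and 772 CPM in WT (0.71 ± 0.15, adjusted p = 0.00515). That call was lost without cdk12-as replicate 1 (adjusted p = 0.0555), without WT replicate 2 (0.0661) and with total counts (0.346). The subset kept 11 or 12 lower genes with any library left out, 12 with the replicate block and 10 with total counts, where elo-2 and nhr-80 lost their calls. elo-2 also lost its call without cdk12-as replicate 1. For the larger list the lower count was 17 to 23 with a library left out, and the higher count was 7 without cdk12-as replicate 1 or WT replicate 2 and 4 with total counts.

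Genes for drawing on stores were mixed. Of 21 genes for fasting lipases, the glyoxylate cycle, gluconeogenesis and trehalose, 3 were higher and 6 lower. For this and the next lists, the shares over all tested genes were 12.8% higher and 11.6% lower. The lysosomal lipase gene lipl-4 had 1.23 and 2.1 CPM in cdk12-as, against 4.21 and 4.32 CPM in WT (-1.32). lipl-5 (-2.05), lipl-2 (-1.4) and lipl-7 (-0.8) were lower too. pck-2, a phosphoenolpyruvate carboxykinase, had 769 and 955 CPM in cdk12-as, against 1310 and 1460 CPM in WT (-0.69). The triglyceride lipase gene atgl-1 (0.58) and the trehalase gene tre-5 (0.93) were higher, but not with total counts. The lower count was 3 without cdk12-as replicate 1, where pck-2 (adjusted p = 0.0518) and lipl-5 (0.0553) lost their calls, 10 with the block and 4 with total counts. Among 24 genes activated by DAF-16, the transcription factor that insulin-like signalling holds back, 3 were higher and 7 lower. The lower ones included dod-18 (-1.5), the metallothionein gene mtl-2 (-1.38) and fat-5. The higher ones, hsp-16.2 (1.33), spp-12 (1.15) and lys-8 (0.96), each lost the call without cdk12-as replicate 1 and without WT replicate 2, and mtl-2 did so without cdk12-as replicate 1. The lower count was 2 or 3 without either WT library or cdk12-as replicate 1, and the higher count 8 with the block. Of 30 insulin-like peptide genes 7 were higher, led by ins-11 (1.99), and 4 lower, led by ins-27 (-1.62). With a library left out 4 to 6 were higher and 1 to 3 lower. Of 25 autophagy genes 7 were higher and 2 lower. lgg-1, which coats autophagosomes, had 434 and 473 CPM in cdk12-as, against 341 and 355 CPM in WT (0.38), and atg-5 was lower (-0.77). The higher autophagy count was 3 without WT replicate 2 and 1 with total counts.

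Protein synthesis and folding genes split by function, where 12.8% of all tested genes were higher and 11.6% lower. Of 32 aminoacyl-tRNA synthetases, which charge tRNAs, 12 were higher and 1 lower. sars-1, for serine, had 360 and 308 CPM in cdk12-as, against 146 and 139 CPM in WT. Its log2 fold change was 1.23 ± 0.14 with an adjusted p of 7.2e-05. pars-1 (0.94), vars-2 (0.93) and iars-1 (0.7) were also higher. Of 53 chaperone genes 17 were higher and 8 lower. hsp-110, a cytosolic co-chaperone, had 296 and 324 CPM in cdk12-as, against 120 and 115 CPM in WT (1.4 ± 0.15). hsp-4, the endoplasmic reticulum BiP, had 73.6 and 75.3 CPM in cdk12-as, against 39.8 and 34.5 CPM in WT (1.0 ± 0.17). Of the chaperonin genes 6 were higher, by 0.32 to 0.61, among them cct-2, cct-6 and cct-8, and dnj-22 was lower (-1.1).

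Of 35 translation factors 10 were higher and 1 lower, and of 33 proteasome subunits also 10 and 1. Among all tested genes the shares were 12.8% higher and 11.6% lower. The base subunit gene rpt-4 had 54.7 and 58 CPM in cdk12-as, against 39 and 39.4 CPM in WT (0.52). Ribosomal proteins did not share this direction. Of 79 cytosolic ones 0 were higher and 3 lower (rpl-20, rpl-24.2 and rpl-33, calls lost without cdk12-as replicate 1 or WT replicate 2), of 66 mitochondrial ones 3 and 3, and of 52 ribosome biogenesis genes 7 and 5. In the respiratory chain 1 of 58 genes was higher and 14 lower, with a median of -0.25. nduf-2.2, of complex I, had 15.5 and 19.4 CPM in cdk12-as, against 31.7 and 36.6 CPM in WT (-0.97). These counts depend on single libraries and on scaling. The synthetases kept 10 or 11 higher genes with any library left out, but the proteasome count was 1 to 5, the translation factors 2 without WT replicate 2 and 4 without cdk12-as replicate 1, and the lower respiratory count 1 to 3 without either WT library or cdk12-as replicate 1. The block gave 16 higher proteasome genes, 26 lower respiratory and 28 lower cytosolic ribosomal genes. Total counts left 1 higher synthetase, 2 higher chaperones, no higher translation factor or proteasome gene and 1 lower respiratory gene. sars-1 and hsp-110 kept their calls there, and pars-1, vars-2, iars-1, hsp-4, rpt-4 and the cct genes did not. With rrn-2.1 left out of the totals, 13 synthetases, 20 chaperones, 10 translation factors and 12 proteasome genes were higher. In that setting 17 respiratory genes were lower.

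**Figure D3:**
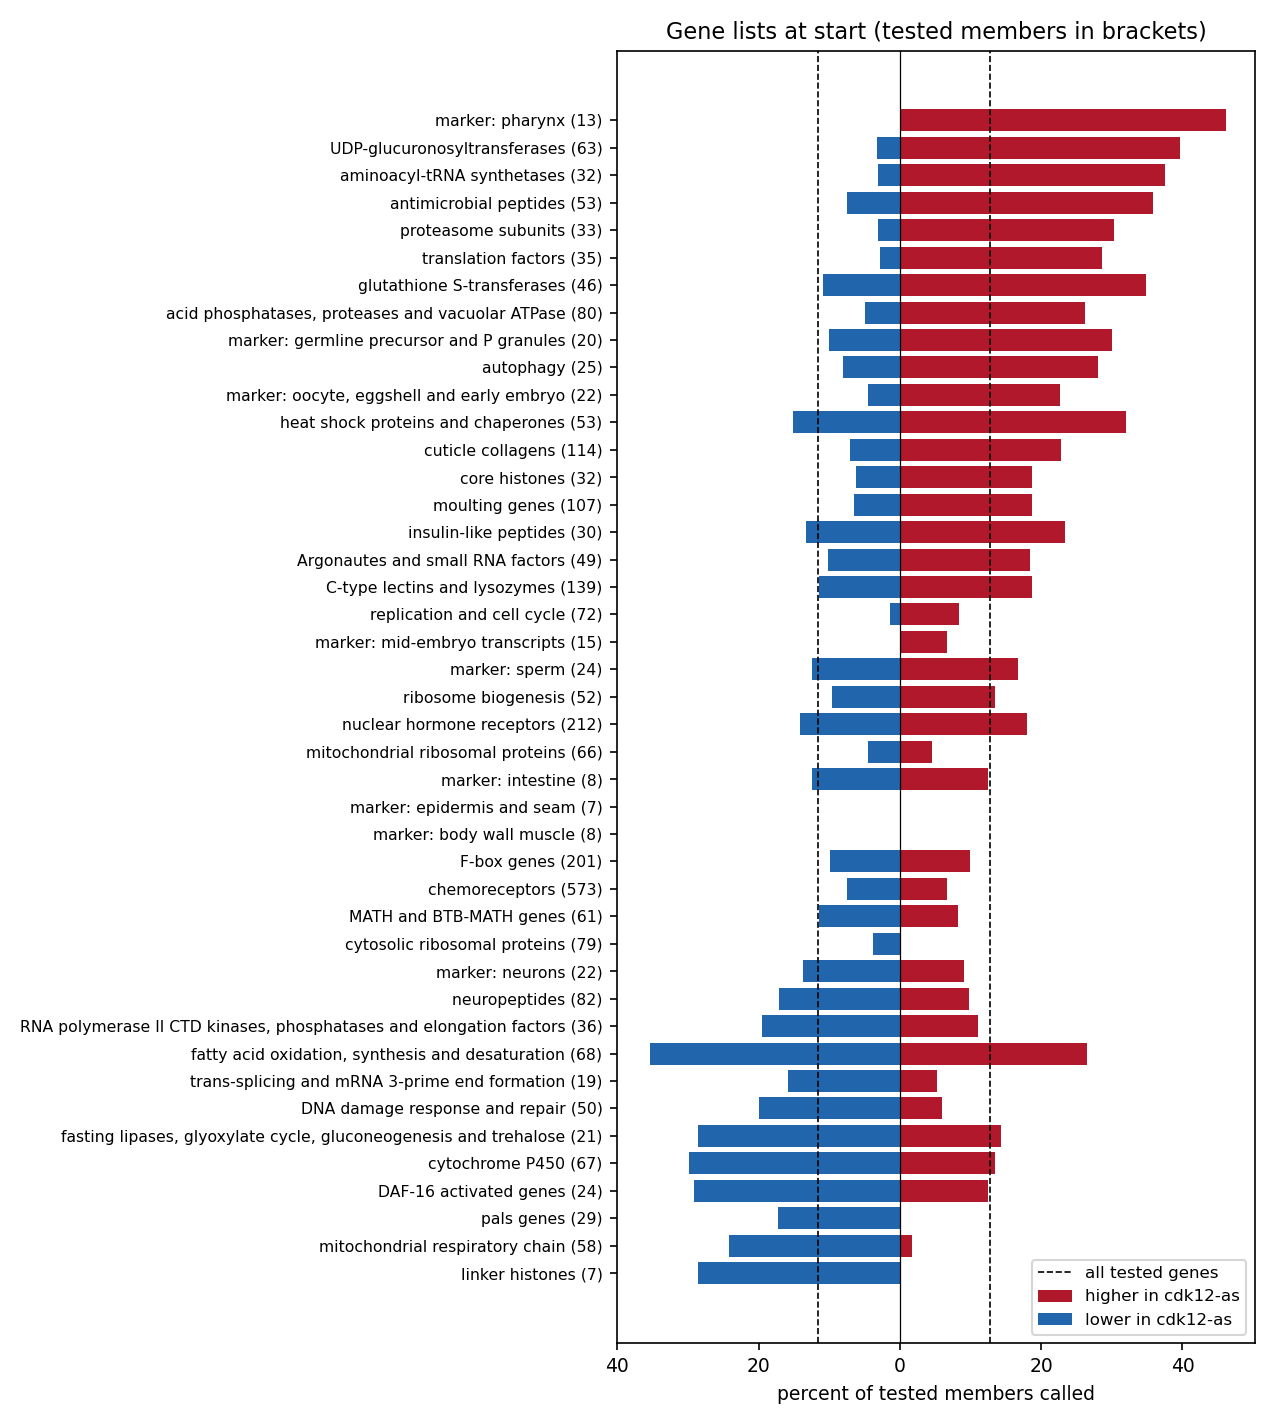
Share of the tested members of each list (number in brackets) called higher (red, right) or lower (blue, left) in cdk12-as at start, in percent. Dashed lines mark the shares over all tested genes, 12.8% higher and 11.6% lower.

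Cuticle and moulting genes were more often higher than lower. All tested genes had shares of 12.8% higher and 11.6% lower. Of 114 collagens 26 were higher and 8 lower, with a median of 0.53, and of 107 moulting genes 20 and 7, with a median of 0.31. col-142 had 5.69 and 7.53 CPM in cdk12-as, against 0.67 and 0.672 CPM in WT (3.3 ± 0.25). fbn-1, a fibrillin-like matrix protein, had 88 and 52.7 CPM in cdk12-as, against 22.5 and 13.4 CPM in WT (1.97 ± 0.37). The hedgehog-related gene grd-5 had 11 and 13.8 CPM in cdk12-as, against 2.51 and 2.31 CPM in WT (2.36), and the patched-related gene ptr-22 rose by a similar amount (2.3). rol-6, a collagen, was lower (-3.2), at 0.112 and 0.0596 CPM in cdk12-as, against 0.598 and 0.913 CPM in WT. The higher counts were 9 collagens and 8 moulting genes without WT replicate 2, 8 moulting genes without cdk12-as replicate 1, and 9 and 8 with total counts, while the block gave 35 moulting genes.

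DNA damage and repair genes were more often lower, in 10 of 50 against 3 higher. Over all tested genes the shares were 11.6% lower and 12.8% higher. atl-1, the ATR-like checkpoint kinase, had 150 and 132 CPM in cdk12-as, against 252 and 238 CPM in WT (-0.8 ± 0.11, adjusted p = 0.000383). rev-3 (listed as Y37B11A.2), a translesion polymerase, was lower (-0.85), as were brc-1 (-0.63) and pms-2 (-0.55). egl-1, which triggers apoptosis, was higher, at 1.49 and 1.05 CPM in cdk12-as, against 0.526 and 0.51 CPM in WT (1.26). Its call was lost without cdk12-as replicate 1 or either WT library, and that of pms-2 without cdk12-as replicate 1. The lower count was 5 to 7 without either WT library or cdk12-as replicate 1, and 1, that of atl-1, with total counts. Of the zim and him-8 zinc-finger genes of meiotic chromosome pairing, chosen after their values were seen, the 3 that act on autosomes were lower together. zim-2 had 2.34 and 1.71 CPM in cdk12-as, against 7.87 and 7.82 CPM in WT (-1.97). zim-1 had 4.13 and 2.52 CPM in cdk12-as, against 11.3 and 12.9 CPM in WT (-1.89), and zim-3 2.6 and 1.65 against 4.79 and 4.89 CPM (-1.21). Their relative him-8, which acts on the X, was not called (log2 fold change -0.01 ± 0.17, 5.73 and 5.54 CPM in cdk12-as, 5.72 and 5.64 CPM in WT, adjusted p = 0.969).

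Of 212 nuclear hormone receptors 38 were higher and 30 lower, where 12.8% and 11.6% of all tested genes were. nhr-11 had 44.6 and 40.1 CPM in cdk12-as, against 13 and 11.8 CPM in WT (1.77), and nhr-62, which acts in dietary restriction, had 39.1 and 33.4 CPM in cdk12-as, against 14.3 and 13.8 CPM in WT (1.37). Of 80 acid phosphatases, proteases and vacuolar ATPase genes 21 were higher and 4 lower. Chemoreceptors had 38 higher and 43 lower of 573, F-box genes 20 and 20 of 201, MATH genes 5 and 7 of 61, neuropeptides 8 and 14 of 82, and Argonautes and small RNA factors 9 and 5 of 49. Replication and cell cycle genes had 6 higher and 1 lower of 72, core histones 6 and 2 of 32, and linker histones 0 and 2 of 7. With a library left out, the higher counts were 19 to 31 for the receptors, 10 to 15 for the phosphatases and proteases and 11 to 23 for the chemoreceptors. The lower counts were 13 to 22 for the receptors, 16 to 24 for the chemoreceptors and 2 to 20 for the neuropeptides.

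Markers of cell types gave an uneven picture, and in whole larvae fewer cells of a type and less RNA per cell cannot be told apart. For comparison, 12.8% of all tested genes were higher and 11.6% lower. Of 13 pharynx markers 6 were higher and 0 lower, with a median of 0.66, and their summed level was 1829 and 1858 CPM in cdk12-as, against 1303 and 1457 CPM in WT. The myosin gene myo-5 had 542 and 519 CPM in cdk12-as, against 256 and 276 CPM in WT (1.0). phat-2, a pharyngeal gland gene, had 18.4 and 12.9 CPM in cdk12-as, against 4.83 and 3.92 CPM in WT (1.83). Of 8 tested intestinal markers 1 was higher (act-5, 0.74, a call lost with any library left out) and 1 lower (mtl-2). The other 6 did not pass the test, and chosen intestinal markers absent from the counted genes could not be tested. Of 22 neuronal markers 2 were higher and 3 lower, with sums of 2337 and 2673 CPM in cdk12-as, against 2857 and 2961 CPM in WT. With any library left out 0 neuronal markers were higher, and without cdk12-as replicate 1 or WT replicate 2 also 0 were lower. Oocyte and early embryo markers had 5 higher and 1 lower of 22 and summed to 234 and 246 CPM in cdk12-as, against 175 and 188 CPM in WT. Germline precursor markers had 6 higher and 2 lower of 20, sperm markers 4 and 3 of 24, and mid-embryo transcripts 1 and 0 of 15 (114 and 100 CPM summed in cdk12-as, against 97.4 and 98.2 CPM in WT). The higher germline and oocyte calls fell to 0 to 2 and to 0 or 1 with a library left out. With total counts 3 pharynx markers were higher and myo-5 lost its call (adjusted p = 0.122). The part of these differences in tissue or stage in the other gene lists was not tested.

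Transcripts from the X chromosome were higher on the whole. The 1376 counted X genes with a position lie between bases 3623 and 4853035. No counted gene was placed on the rest of the X, which was therefore not analysed here. Of the 726 tested, 182 were higher in cdk12-as (25.1%) and 29 lower (3.99%), with a median of 0.229. Of 15059 tested autosomal genes 1844 were higher (12.2%) and 1802 lower (12.0%), with a median of -0.008, and the medians of single autosomes ran from -0.028 on III to 0.011 on IV. The median was above the autosomal one in each of 5 classes of expression level. Over 64 CPM on average, the median was 0.321 in 53 X genes, against 0.041 in autosomal genes, and under 1 CPM it was 0.161 in 207 X genes. All 5 X megabases had medians of 0.156 to 0.291, and of 84 autosomal megabases, which ran from -0.222 to 0.169, 2 reached the lowest X value.

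The single libraries split in the same way. Taken as a deviation from the mean of the 4 start libraries, the median X gene minus the median autosomal gene was 0.107 and 0.133 in cdk12-as replicates 1 and 2, against -0.122 and -0.116 in WT (log2 CPM). After starvation the values were 0.116 and 0.156 in cdk12-as, against -0.14 and -0.128 in WT. In fed larvae they were smaller, at 0.062 and 0.084 in cdk12-as, against -0.105 and -0.041 in WT, and with inhibitor 0.018 and 0.083 against -0.091 and -0.036. The strains did not overlap in any of the 4 conditions. The difference between the X and autosomal medians was 0.237, and ran between 0.111 and 0.267 under the other settings. The count of higher X genes was 95 to 137 with a library left out and 30 with total counts.

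In hermaphrodites the dosage compensation complex lowers X expression, and its SDC subunits also silence her-1, a gene that signals male fate. Of 12 tested genes of this list, chosen after values were seen, 2 were called, both higher. her-1 had 4.39 and 3.46 CPM in cdk12-as, against 0.981 and 1.02 CPM in WT (1.96 ± 0.29, adjusted p = 0.000471). dpy-27, a condensin subunit of the complex, had 171 and 167 CPM in cdk12-as, against 139 and 142 CPM in WT (0.27, adjusted p = 0.026). The call of dpy-27 was lost with any library left out, with total counts and without the filter, and that of her-1 was kept. Whether either bears on the X difference was not tested.

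**Figure D4:**
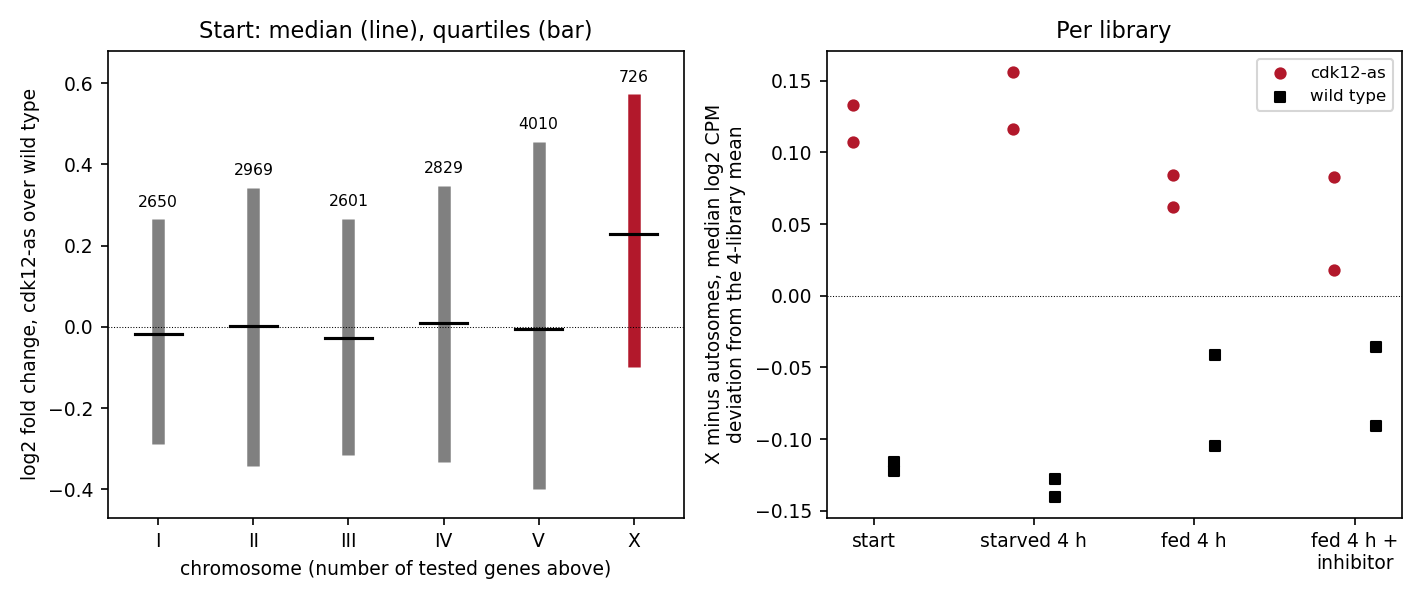
Left: log2 fold change of cdk12-as over WT at start by chromosome, as median (line) and quartiles (bar), with the number of tested genes above. Right: median X gene minus median autosomal gene per library (log2 CPM, as deviation from the mean of the 4 libraries of a condition), cdk12-as left of WT. The X median is 0.229, and the cdk12-as points lie above the WT points in all 4 conditions.

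Closely spaced downstream genes were slightly lower before any inhibitor. Among protein-coding genes, those starting within 500 bases after the end of a same-strand gene included 180 higher (9.41%) and 312 lower (16.3%) of 1912, with a median of -0.079. Of the genes just upstream of them, those that were themselves downstream of another gene were left out. The remaining 1547 had 218 higher (14.1%) and 164 lower (10.6%), with a median of 0.011. In all other coding genes the median was 0.026. In 1013 of 1782 neighbouring pairs (56.8%) the downstream gene lay below its upstream partner, by 0.077 on the log2 scale at the median. All upstream partners, counted once per pair, included 217 higher and 230 lower, with a median of -0.017. In the 311 pairs 1 to 200 bases apart the share was 53.1% and the median difference -0.033, with both partners lower (medians of -0.144 downstream and -0.116 upstream). In the 1471 pairs over 200 to 500 bases apart the share was 57.6% and the median difference -0.091. After food with inhibitor the downstream median was -0.396, after food -0.224 and after starvation -0.1. In the same order, the medians of the 1547 upstream genes were 0.01, -0.101 and -0.034. Those of all tested genes were 0.017, -0.057 and -0.008. The lower downstream count was 146 to 254 with a library left out. By length, coding genes spanning over 10 kb included 114 higher (17.2%) and 51 lower (7.68%) of 664, a higher count of 36 to 68 with a library left out and 4 with total counts.

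Among RNA classes, 20 of 93 lincRNAs and 13 of 43 antisense RNAs were lower and 5 and 2 higher. Without a stated strand setting, reads of an antisense RNA and of its partner cannot be told apart. Of 244 snoRNAs 2 were higher and 4 lower. Over all tested genes 11.6% were lower and 12.8% higher.

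Some of the larger changes lay side by side on the chromosomes. There were 16 runs of at least 4 adjacent tested genes that all differed more than 2-fold the same way, 11 of them higher and 5 lower in cdk12-as. The longest, on chromosome II from 12610316 to 12629206, held 9 genes: lips-16, Y38E10A.14 and the 7 tested nspe genes, with log2 fold changes of 1.89 to 3.64. The nspe genes summed to 177 and 121 CPM in cdk12-as, against 17.8 and 10.5 CPM in WT. Y38E10A.14 had 221 and 163 CPM in cdk12-as, against 34 and 22.8 CPM in WT. On chromosome V from 5071837 to 5087106, Y58A7A.2 to Y58A7A.5 were higher by 1.42 to 2.62. Y58A7A.3 had 168 and 150 CPM in cdk12-as, against 31.2 and 25.5 CPM in WT. On chromosome I, from 14153291 to 14161648, fipr-22, fipr-23, fipr-24, C37A5.3 and best-8 were higher (best-8 not without cdk12-as replicate 2 or WT replicate 2). Among the lower runs was one with zim-1, zim-2, zim-3 and a gene between them (IV, 10547068 to 10560965). Others ran from clec-60 to clec-61 (II, 10480092 to 10490431) and from ins-27 to ins-24 (I, 14027243 to 14031642). Y58A7A.2 and ins-24 each lost the call without WT replicate 2 and without cdk12-as replicate 2. Genes of a run can share sequence or reads and are not independent.

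Most start differences had the same direction after another 4 h without food. The starved values come from other libraries, which may share cultures with the start libraries. Of the 2029 genes higher at start, 1081 (53.3%) were called higher after starvation and 7 lower, and 94.3% had a positive value, against 49.2% of all tested genes. The 1081 make up 69.6% of the 1553 genes called higher after starvation (9.8% of those tested). Of the 1836 lower genes, 922 (50.2%) were called lower again and 2 higher, which is 70.3% of the 1312 genes called lower (8.28%). The synthetase, proteasome and translation factor lists had fewer higher genes after starvation, 3, 0 and 2, with no member called for a change of its strain difference. UDP-glucuronosyltransferases kept a count of 25 higher and glutathione S-transferases had 27. Some other lists changed their balance. Replication and cell cycle genes went from 6 higher and 1 lower at start to 1 and 9 after starvation. Core histones went from 6 and 2 to 1 and 3, and neuropeptides from 8 and 14 to 14 and 0. Genes activated by DAF-16 went from 3 and 7 to 5 and 3. Lists were not tested for such a change.

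**Figure D5:**
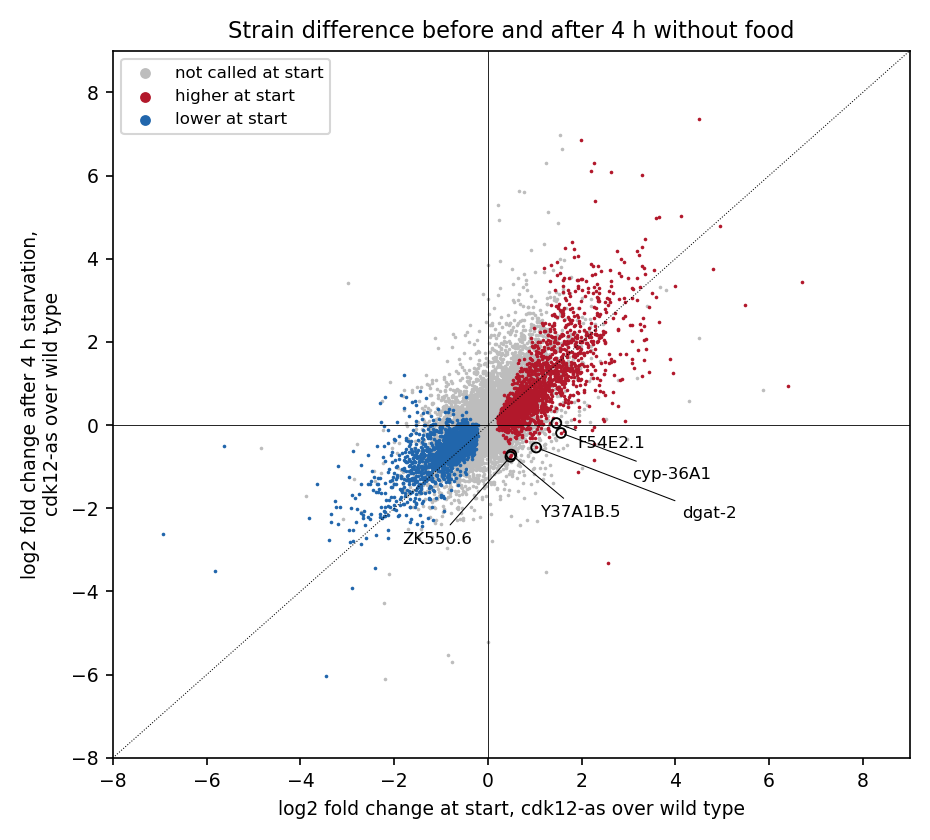
Log2 fold change of cdk12-as over WT for each tested gene at start (horizontal) and after 4 h of starvation (vertical), with genes called at start in red (higher) and blue (lower) and the dotted line of equal values. The 5 labelled genes, whose log2 fold change was higher at start than after starvation, lie below that line.

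The strain difference itself changed between start and 4 h of starvation in 5 genes (0.0316% of those tested), all in the direction of a higher value at start, by edgeR's quasi-likelihood test of the difference. DESeq2 called 93 and the replicate block 59, and 1277 had an unadjusted p under 0.05. dgat-2, an enzyme gene of the last step of triglyceride synthesis, had 19.5 and 18.4 CPM in cdk12-as, against 9.4 and 9.13 CPM in WT at start. After starvation it had 32.2 and 37.6 CPM in cdk12-as, against 49.2 and 52 CPM in WT. Its level rose in both strains and more in WT. The cytochrome P450 gene cyp-36A1 had 27.5 and 22.1 CPM in cdk12-as, against 7.8 and 9.0 CPM in WT at start, and was not called after starvation (adjusted p = 0.349).

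The genes that were lower in cdk12-as at start were also more often lowered by food in WT. That contrast, WT fed against WT starved, uses neither strain's start libraries. Of the 1836 lower genes, 788 (42.9%) were lower and 342 (18.6%) higher in fed than in starved WT, where 21.5% and 24.4% of all tested genes were. Of the 2029 higher genes, 692 (34.1%) were higher and 404 (19.9%) lower with food, and the 692 are 17.9% of the 3868 genes that food raised. chil-28 and F40E3.5, among the largest falls, had log2 fold changes with food of -4.75 and -3.51 in WT. Of the 32 synthetases 28 were raised by food in WT, as were 32 of 33 proteasome subunits. The 72 of 79 cytosolic ribosomal genes that food raised in WT were not higher in cdk12-as at start. In the fed strains, 945 of the 2029 (46.6%) were higher in cdk12-as, where 12.7% of all tested genes were. With inhibitor 1135 (55.9%) were higher, against 19.8% of all tested genes.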

How the data were processed

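The authors deposited whole-number read counts for 24654 genes in 16 libraries, which were used unchanged. Per the submitters' processing notes, build ce10 and the tools deepTools 3.2, DESeq2, featureCounts, HISAT2 and Trimmomatic were used, with no role given. Not given in the sources used here are the program behind the gene counts, its strand setting, and whether it took reads or pairs. Values of antisense, overlapping or near-identical genes are therefore uncertain. Lines that name no gene (reads without a feature and ambiguous reads) did not enter library sizes or tests. Positions on ce10 came from a second deposited table. Per the file headers, featureCounts 1.5.0-p2 made it, with strand setting 2. They placed 24100 genes on one chromosome and strand within 100000 bases. Its exon lengths, another unit the authors deposited, were not used for levels, and its 32 columns of spliced-leader counts carry codes of no labelled sample and stayed unused.

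Counts were fitted with edgeR 4.0.16 (R 4.3.3, limma 3.58.1) as 8 group means over all 16 libraries, with TMM scaling and filterByExpr (minimum count 10, 15845 genes kept). The quasi-likelihood F test was two-sided. There were 8 residual degrees of freedom and 4.17 more from the prior (median). The square root of the common dispersion, a measure of variation between libraries of a group, was 17.3%. A gene was called where its p, adjusted over all tested genes by the Benjamini-Hochberg method, was under 0.05. The SE of a log2 fold change is its size divided by the square root of F. DESeq2 1.42.0, other scalings and filters, a replicate block, the 4 start libraries alone and each library left out were tried as alternatives. Summaries and figures used Python 3.11.15, pandas 2.3.3, numpy 2.4.6 and matplotlib 3.10.9.

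Same-numbered start libraries deviated together (correlation 0.434, and 0.141 to 0.536 over 28 pairs of groups). The replicate numbers were therefore treated as pairs in the block. The main fit has no block, so its SEs and adjusted p-values leave this pairing out. Named genes are the 15 largest rises and falls among called genes that reached 5 CPM on average without overlap between strains, up to 3 members per list by adjusted p, cdk-12, ccnk-1, cdk-9, ama-1 and the 5 tested genes on each side of cdk-12. The libraries compared and the 44 gene lists were chosen with earlier results of these data known. A further 6 lists and 70 named genes were chosen after their values were seen. Lists are described by counts and medians, without a test of their own. Promoter motifs were not counted, because promoter sequences were not used here.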

Additional observations from a re-analysis of the deposited data

Results flagged for a closer look

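In 5 genes the strain difference at start differed from that after 4 h of starvation by edgeR's quasi-likelihood test of the difference itself, with Benjamini-Hochberg adjustment over all tested genes. In each the cdk12-as level relative to WT was higher at start. The start and starved libraries are separate, and the labels do not state whether they come from the same cultures.

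For dgat-2 the difference of log2 fold changes was 1.57 ± 0.15 (SE, adjusted p = 0.00283), from 1.03 at start and -0.54 after starvation, and the call stood with every single library left out. For cyp-36A1 it was 1.75 ± 0.19 (adjusted p = 0.00464). This gene had 38.4 and 37.3 CPM in cdk12-as, against 43.4 and 43 CPM in WT after starvation, so that its level rose with time in both strains. Its call was lost without WT start replicate 1 (adjusted p = 0.0537).

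For Y37A1B.5, now named semo-1, it was 1.21 ± 0.14 (adjusted p = 0.00642). It had 37 and 38.3 CPM in cdk12-as, against 25.9 and 27.4 CPM in WT at start, and 41.3 and 42 CPM in cdk12-as, against 69.6 and 66.5 CPM in WT after starvation. The strains changed order between the times. ZK550.6 did the same, with 1.24 ± 0.14 (adjusted p = 0.00642). It had 46.6 and 46.5 CPM in cdk12-as, against 33.1 and 33.7 CPM in WT at start, and 41 and 45.8 CPM in cdk12-as, against 68.9 and 78.4 CPM in WT after starvation.

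For F54E2.1 it was 1.41 ± 0.18 (adjusted p = 0.0134). It had 49.8 and 38.4 CPM in cdk12-as, against 15.7 and 16.3 CPM in WT at start, and 22 and 23.5 CPM in cdk12-as, against 21.1 and 22.8 CPM in WT after starvation. Leaving out WT start replicate 1 ended the calls of Y37A1B.5 and ZK550.6 (adjusted p = 0.0765 for both) and of F54E2.1 (0.121). Leaving out cdk12-as starved replicate 1 ended the same 3 calls (0.0536, 0.0536 and 0.12). Y37A1B.5 also lost its call without cdk12-as starved replicate 2 (0.064) or WT starved replicate 1 (0.0553). F54E2.1 lost its call in 6 of the 8 cases, at adjusted p of 0.0553 to 0.121.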

How the results depend on the processing

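With total-count scaling, 579 genes were higher and 641 lower in cdk12-as at start, and 563 and 486 after starvation. With a library left out these counts were 948 to 1572 higher and 815 to 1467 lower at start, and 712 to 988 higher and 656 to 774 lower after starvation. Every other setting stayed within 1.5 times of the start counts, and no gene was called in the opposite direction at start under any setting. The change of the strain difference with starvation was called in 9 genes with total counts without rrn-2.1, in 0 with total counts, in 14 without the filter on low counts, in 59 with the replicate block and in 93 by DESeq2, and in 1 to 14 with a library left out. The cause was not tested. Of the 151 called named genes, 59 lost the call with total counts, 9 to 25 with a start library left out, 11 with the start libraries alone, 5 without the filter, 1 with total counts without rrn-2.1 and 1 at a minimum count of 50. None lost it with the replicate block, which ended no call among these, with DESeq2's size factors or by DESeq2. Of 62 called genes named after their values were seen, 25 lost the call with total counts, 6 to 11 with a start library left out, 5 with the start libraries alone and 1 without the filter. Of 100 counts for lists, 72 moved by over 1.5 times with total counts, 31 to 63 with a library left out, 29 with the block and 25 with the start libraries alone.

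Log2 fold changes that turned were close to 0 or of low genes, and none was called. With a library left out, cdk-12 ran from -0.12 to 0.05 (above 0 without cdk12-as replicate 1, and at 0.02 without WT replicate 2). In the same way B0285.3 ran from -0.83 to 0.29, B0285.4 from -0.05 to 0.1, hse-5 from -0.15 to 0.08 and evl-14 from -0.05 to 0.08 (-0.01 without WT replicate 2), all of them near cdk-12. sbp-1 ran from -0.07 to 0.34 (-0.02 without cdk12-as replicate 2), him-8 from -0.04 to 0.01 and fat-7 from -1.13 to 0.12. With total counts, ama-1 was -0.02, sbp-1 -0.02, B0285.4 -0.09, dcn-1 -0.11 and evl-14 -0.11. Without the filter and at a minimum count of 50, B0285.4 was -0.01 and -0.02, dcn-1 -0.01 and -0.03, and evl-14 -0.02 and -0.03. With 2 libraries per group, differences inside the spread of a pair were not detectable.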
